A study of Mus musculus with 21 samples.

Results

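The genes described here belong to the machinery that forms blood clots and dissolves them, measured in the lung of mice after a single exposure to a fungal extract. They are F3 (tissue factor), Thbd (thrombomodulin), Procr (the endothelial protein C receptor), Tfpi (tissue factor pathway inhibitor), Plat (tissue-type plasminogen activator), Plau (urokinase), Plaur (the urokinase receptor) and Thbs1 (thrombospondin 1). They were chosen by name, as the probe sets whose platform annotation gives 1 of these symbols. They make up 8 of 12393 genes and 12 of 22626 probe sets. Tfpi has 3 probe sets, Plau and Thbs1 have 2 each, and the other 5 genes have 1 each. A further probe set that the annotation assigns to both Thbs1 and another gene was left out.

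Coagulation in tissue starts when tissue factor on a cell surface meets factor VII from plasma, and the complex activates factor X, which leads to thrombin and fibrin. Tfpi blocks that first complex, whereas thrombomodulin binds thrombin and, helped by the endothelial protein C receptor, turns it to the activation of protein C, an anticoagulant. Fibrin is dissolved by plasmin, which tissue-type plasminogen activator and urokinase release from plasminogen, and the urokinase receptor holds urokinase at the surface of leukocytes and other cells. Thrombospondin 1 is a glycoprotein of platelet granules and matrix that binds fibrin and activates latent TGF-beta. In the healthy lung the endothelium carries much thrombomodulin and the alveolar epithelium tissue factor, and alveolar fibrin is a common feature of lung inflammation.

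Gene expression was measured on 21 arrays, each of the whole left lung of a female BALB/c mouse aged 8 weeks. All mice had 1 aspiration of 50 µl into the trachea, so that no group was untreated. MACA, a crude antigen of the fungus Metarhizium anisopliae, was given at 20 µg, BSA (bovine serum albumin) at 20 µg, and HBSS, the balanced salt solution in which both agents were dissolved, alone. Lungs were taken at 3 h (4 MACA, 3 BSA and 3 HBSS arrays) or 12 h (3 MACA, 4 BSA and 4 HBSS arrays). The labels describe agents of high or low allergenicity against vehicle, and call each array a biological replicate. Beyond that, nothing in the labels says how animals were assigned or pooled, so the p-values measure the spread between these arrays.

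Levels are given as log2(intensity + 16) after quantile normalization, on which a step of 1 is a doubling for bright genes and understates the change of dim ones. Differences are log2 folds ± SE from a limma fit of 6 group means, with p-values adjusted by Benjamini-Hochberg over 12393 genes, and "called" means an adjusted p under 0.05. Levels of different genes cannot be set against each other, because each probe set has its own brightness. Homogenised lung holds many cell types, so fewer cells of a type and less RNA per cell cannot be told apart.

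A technical split ran through the arrays. A bacterial control spiked into the hybridization is read by 2 probe sets, and their ratio lay between 1.62 and 1.91 on 13 arrays (the high set) and between 0.939 and 1.22 on 8 arrays (the low set). The low set held replicates 3 and 4 of MACA at 3 h, replicates 3 and 4 of BSA at 12 h and all 4 HBSS arrays at 12 h. Every MACA array at 12 h lay in the high set, so the comparison of MACA with HBSS at 12 h sets high against low arrays, and there the set and the agent cannot be told apart except through a fit that takes the set from the other groups. For the members, values with the set as a term, or within a set, are given where they end or add a call. For the other genes of the pathway they are given for some of the calls only.

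The 250 bases before the transcription start were read for the members present in the RefSeq promoter table (build GRCm38.p6), namely F3, Plaur, Procr and Tfpi, the last with 2 windows. Thbd, Plat, Plau and Thbs1 have no entry in that table. Of 6 motifs searched on both strands, TGANTCA, the letters bound by the AP-1 factors Fos and Jun, occurred in 3 of the 5 windows and in 6.75% of 32851 windows of the same length. The 3 windows that hold it are shown, 5′ to 3′ on the strand of the gene, with the AP-1 matches in capitals: F3 at chr3:121723287-121723536, Plaur at chr7:24462233-24462482 and Procr at chr2:155750967-155751216, all on the plus strand.
F3: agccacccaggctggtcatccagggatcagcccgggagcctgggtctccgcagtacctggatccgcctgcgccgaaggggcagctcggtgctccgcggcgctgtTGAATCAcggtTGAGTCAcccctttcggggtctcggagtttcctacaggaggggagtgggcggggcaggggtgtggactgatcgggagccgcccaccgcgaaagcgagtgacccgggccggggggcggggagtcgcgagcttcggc
Plaur: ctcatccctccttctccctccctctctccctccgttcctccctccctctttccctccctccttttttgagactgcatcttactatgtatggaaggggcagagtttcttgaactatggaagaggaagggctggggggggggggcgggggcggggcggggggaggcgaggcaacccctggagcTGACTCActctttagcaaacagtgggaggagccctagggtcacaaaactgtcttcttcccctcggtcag
Procr: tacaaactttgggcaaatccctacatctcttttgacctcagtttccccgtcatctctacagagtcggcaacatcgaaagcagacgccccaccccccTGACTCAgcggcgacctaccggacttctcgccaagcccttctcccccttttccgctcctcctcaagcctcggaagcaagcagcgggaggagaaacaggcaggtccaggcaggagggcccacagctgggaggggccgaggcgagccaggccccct
In F3 the AP-1 letters occur as TGAATCA, 146 to 140 bases before the start, and as TGAGTCA, 135 to 129 bases before it. Plaur holds TGACTCA 69 to 63 bases before the start, and Procr holds TGACTCA 154 to 148 bases before it. These distances are from the transcript start to which the table ties each window. For F3 that is the start of the gene in the RefSeq gene table, whereas the Procr window belongs to a start 92 bases inside the gene and the Plaur window to one 1546 bases inside it. Neither Tfpi window holds these letters. NF-kB letters (GGG and CC with any 5 bases between them) were in 4 of the 5 windows but also in 45.8% of all windows, and SP1 letters (GGGCGG) in 4 of 5 and in 32.7%. KLF letters (CCACCC) were in 2 of 5 and in 28.1%. EGR letters (GCGNGGGCG) were in 1 of 5, as GCGGGGGCG in Plaur where they overlap SP1 letters, and in 4.70% of all windows. CRE letters (TGACGTCA) were in 0 of 5 and in 1.55%. The matches describe the letters of these windows and do not show that a factor was bound in these lungs.

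To find out which of these genes the fungal extract changed, MACA was compared with the vehicle at each time. At 3 h, Thbs1 and Plaur were higher, and no member was called lower: 2 of 8 members were called, beside 8.12% of all genes. At 12 h, Thbs1 was still higher while Thbd and Procr, the cell surface receptors of the protein C pathway, were lower: 3 of 8 members were called, beside 20.2% of all genes (10.2% higher and 10.1% lower). MACA against BSA gave Thbs1 and Plaur as higher at 3 h (2 of 8, beside 5.95% of all genes) and Thbs1 as higher at 12 h (1 of 8, beside 9.65%). BSA against HBSS gave 0 of 8 called by limma at 3 h, where 1 member had an unadjusted p under 0.05 and 0.178% of all genes were called. It also gave 0 of 8 at 12 h, again with 1 member at an unadjusted p under 0.05, beside 1.35% of all genes. The differences from HBSS and from BSA at a time share the MACA arrays. The median difference of the 8 members between MACA and HBSS was 0.15 at 3 h and -0.01 at 12 h, against -0.02 and 0.00 over all genes.

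**Figure D1:**
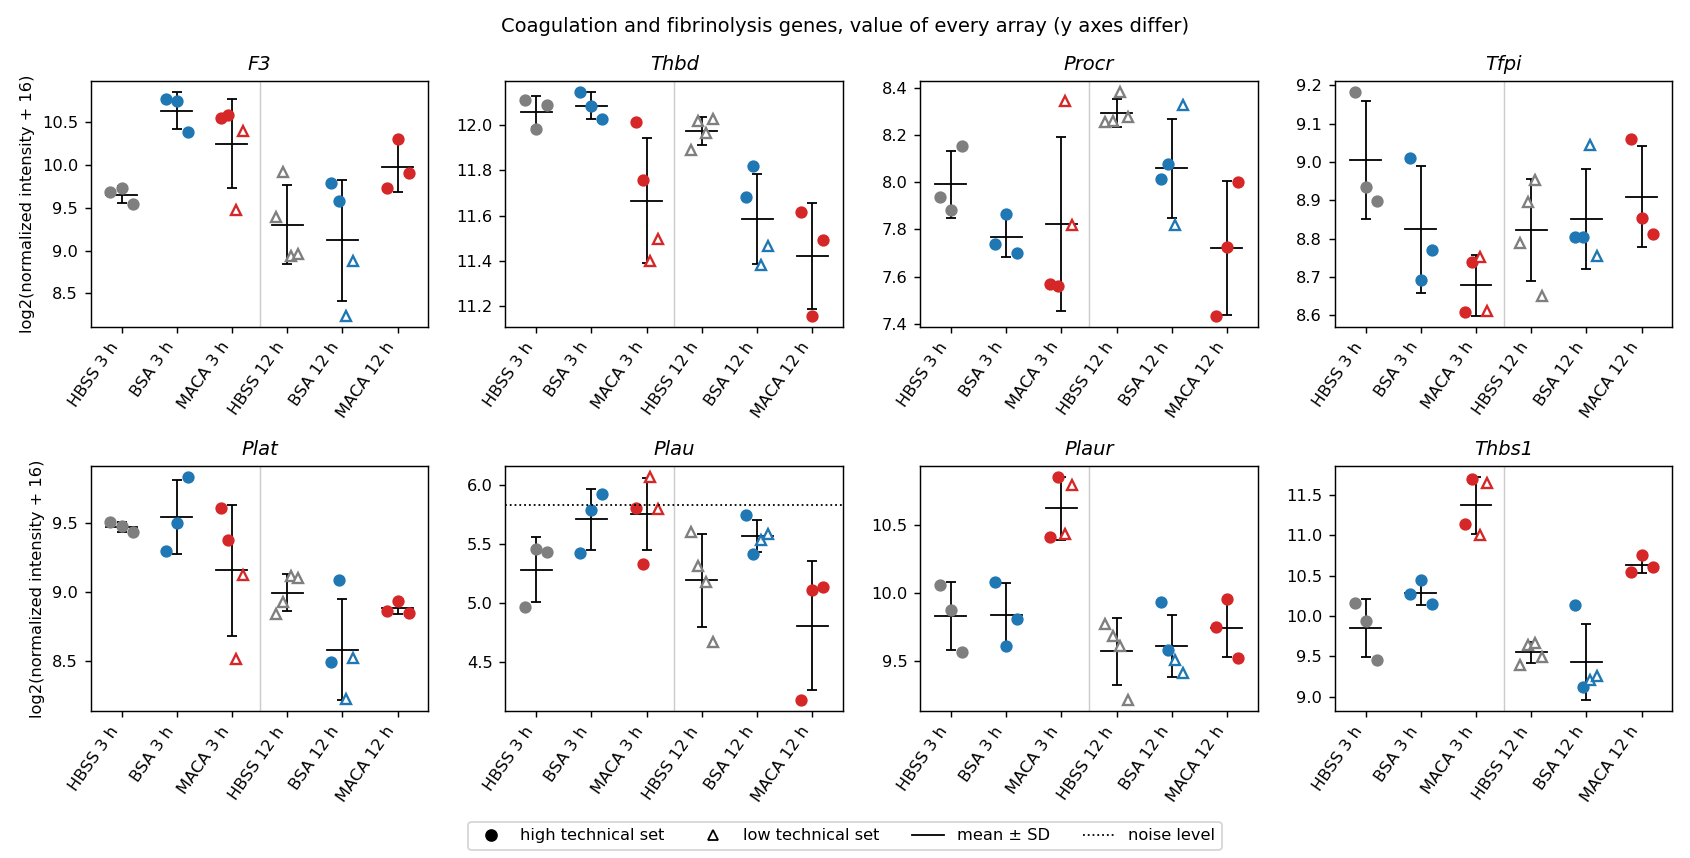
Level of each of the 8 genes on every array, as log2(normalized intensity + 16) on the y axis with its own range in each panel, by agent and time on the x axis; filled circles are arrays of the high technical set and open triangles those of the low set, and bars show the mean ± SD. The 4 MACA arrays at 3 h lie above all BSA and HBSS arrays for Plaur and Thbs1, and nearly all Plau values lie under the dotted noise level of 5.83.

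Thbs1 had the largest difference of the members between MACA and HBSS at both times. At 3 h its log2 level was 11.13, 11.70, 11 and 11.64 on the 4 MACA arrays, 10.27, 10.45 and 10.15 on the BSA arrays and 10.16, 9.94 and 9.46 on the HBSS arrays. At 12 h it was 10.54, 10.76 and 10.61 with MACA, 10.13, 9.12, 9.21 and 9.25 with BSA, and 9.40, 9.64, 9.66 and 9.49 with HBSS. The MACA arrays were above every BSA and HBSS array at both times. The difference from HBSS was 1.52 ± 0.23 (SE) at 3 h, a 2.86-fold higher intensity (adjusted p = 0.000601), and 1.09 ± 0.23 at 12 h, 2.13-fold (adjusted p = 0.00331).

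Thbs1 was likewise higher with MACA than with BSA, by 1.08 ± 0.23 at 3 h (adjusted p = 0.0118) and by 1.21 ± 0.23 at 12 h (adjusted p = 0.0042). Against HBSS, BSA differed by 0.43 (95% interval -0.08 to 0.95) at 3 h and by -0.12 (-0.56 to 0.32) at 12 h. The group means ran from MACA at 3 h (11.37) through MACA at 12 h (10.64) and BSA at 3 h (10.29) to HBSS at 3 h (9.85), HBSS at 12 h (9.55) and BSA at 12 h (9.43). The first 3 groups in this order did not overlap with each other, whereas from BSA at 3 h on each group overlapped with the next. The second Thbs1 probe set, fitted with all probe sets, gave differences from HBSS of 1.35 at 3 h (adjusted p = 0.026) and 1.37 at 12 h (adjusted p = 0.0108). It gave 0.94 against BSA at 3 h, which was not called (adjusted p = 0.12), and 1.61 at 12 h (adjusted p = 0.00963).

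The 3 h difference of Thbs1 from HBSS was called in all 10 other settings and in all 7 fits that left out 1 array (adjusted p up to 0.0344). The 12 h difference was 0.84 with the technical set as a term, where it was no longer called (adjusted p = 0.0727), and 0.42 without scaling between arrays (adjusted p = 0.35), while over all settings the adjusted p ranged from 0.00144 to 0.35. The differences from BSA were 1.13 (adjusted p = 0.108) at 3 h and 1.01 (adjusted p = 0.114) at 12 h among the high-set arrays alone, where neither was called.

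Plaur, which binds urokinase on the cell surface, was higher with MACA at 3 h. Its log2 level was 10.41, 10.85, 10.43 and 10.79 on the MACA arrays at 3 h, 10.08, 9.61 and 9.81 on the BSA arrays and 10.05, 9.87 and 9.56 on the HBSS arrays. At 12 h it was 9.75, 9.96 and 9.52 with MACA, 9.93, 9.58, 9.51 and 9.41 with BSA, and 9.77, 9.68, 9.61 and 9.21 with HBSS. All MACA arrays at 3 h exceeded all other arrays, and the other 5 groups overlapped with their neighbours in the order of means. The difference from HBSS at 3 h was 0.79 ± 0.17, 1.73-fold (adjusted p = 0.0105), and that from BSA was 0.79 ± 0.17 (adjusted p = 0.0152).

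At 12 h Plaur differed from HBSS by 0.17 (95% interval -0.20 to 0.54) and from BSA by 0.13 (-0.24 to 0.50), neither of them called. Within MACA it fell by 0.88 from 3 h to 12 h (adjusted p = 0.00392), a fall called in 7 of 7 fits that left out 1 array. The test of whether the difference from HBSS itself changed between 3 h and 12 h gave -0.62, which was not called (adjusted p = 0.168). High-set and low-set arrays of MACA at 3 h gave like Plaur means of 10.63 and 10.61. The 3 h difference from HBSS was 0.80 among the high-set arrays alone (adjusted p = 0.0714) and 0.66 without HBSS replicate 3 (adjusted p = 0.0667), and both lost the call. The difference from BSA at 3 h was 0.80 among the high-set arrays (adjusted p = 0.108), where it too lost the call. It lost it as well with only the groups compared (adjusted p = 0.0944), without scaling (0.72, adjusted p = 0.738), without MACA replicate 4 (adjusted p = 0.0512) and without BSA replicate 2 (adjusted p = 0.1).

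Beside the rise of Thbs1 and Plaur at 3 h, the summed intensities of neutrophil and of macrophage and monocyte markers were higher in the same lungs. The summed intensity of 10 neutrophil markers was 7475 to 11505 on the MACA arrays at 3 h, 1506 to 4200 with BSA and 1048 to 3427 with HBSS, and 4 of the 10 were called higher against HBSS (median difference 0.79). The sum of 11 macrophage and monocyte markers was 11226 to 14245 with MACA at 3 h, 8002 to 8862 with BSA and 6346 to 9941 with HBSS, with 2 of 11 called higher and a median difference of 0.00 over the 11. Mpo and Elane, which mark neutrophil precursors, lay under the noise level on every array of these groups, as did the late granule gene Camp. The sum of 8 platelet and megakaryocyte markers was 1495 to 1697 with MACA at 3 h, 1199 to 1886 with BSA and 1181 to 1429 with HBSS, and 0 of the 8 were called by limma against HBSS, with 2 at an unadjusted p under 0.05. Of all genes, 4.84% were called higher in MACA against HBSS at 3 h, and 8.12% in either direction. The part of these cells in the Thbs1 and Plaur differences was not tested.

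F3, the initiator of coagulation, had its highest levels on BSA and MACA arrays at 3 h, but no difference between agents was called. Its log2 level at 3 h was 10.55, 10.58, 9.47 and 10.39 with MACA, 10.78, 10.75 and 10.39 with BSA and 9.68, 9.74 and 9.54 with HBSS. At 12 h it was 9.73, 10.31 and 9.91 with MACA, 9.79, 9.58, 8.24 and 8.88 with BSA, and 9.40, 9.92, 8.94 and 8.96 with HBSS. Every BSA array at 3 h lay above every HBSS array, and MACA replicate 3, a low-set array, lay under all of them. The difference from HBSS at 3 h was 0.60 ± 0.34 for MACA (adjusted p = 0.31) and 0.98 ± 0.36 for BSA (adjusted p = 0.326). These comparisons share the HBSS arrays.

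In the groups that hold arrays of both technical sets, 2 of each, F3 was lower on the low-set arrays, and the cause was not tested. In MACA at 3 h the high-set arrays held 10.55 to 10.58 and the low-set arrays 9.47 to 10.39, and in BSA at 12 h the high-set arrays held 9.58 to 9.79 and the low-set arrays 8.24 to 8.88. Among high-set arrays alone the 3 h differences from HBSS were 0.91 for MACA (adjusted p = 0.0205) and 0.98 for BSA (adjusted p = 0.0154), both called. With the set as a term they were 1.04 for MACA (adjusted p = 0.031) and 0.98 for BSA (adjusted p = 0.133). The range of the adjusted p over the other settings was 0.0205 to 0.851 for MACA and 0.0154 to 1 for BSA.

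At 12 h F3 differed from HBSS by 0.68 ± 0.34 with MACA (adjusted p = 0.179), and by -0.20 with the set as a term (adjusted p = 0.758). It differed from BSA by 0.86 ± 0.34 with MACA (adjusted p = 0.125), by 0.30 among high-set arrays (adjusted p = 0.403), and by 1.09 without BSA replicate 1, where it was called (adjusted p = 0.0452). The order of the group means was BSA at 3 h (10.64), MACA at 3 h (10.25), MACA at 12 h (9.98), HBSS at 3 h (9.65), HBSS at 12 h (9.30) and BSA at 12 h (9.12), and every group overlapped with the next. Within BSA, F3 fell by 1.52 from 3 h to 12 h (adjusted p = 0.0187), the largest fall of any member. The difference was -1.08 with the set as a term (adjusted p = 0.0557) and -0.95 among the high-set arrays (adjusted p = 0.0348), and it lost its call in 4 of 7 fits that left out 1 array (BSA replicates 1 and 2 at 3 h, 3 and 4 at 12 h), with adjusted p up to 0.0853.

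**Figure D2:**
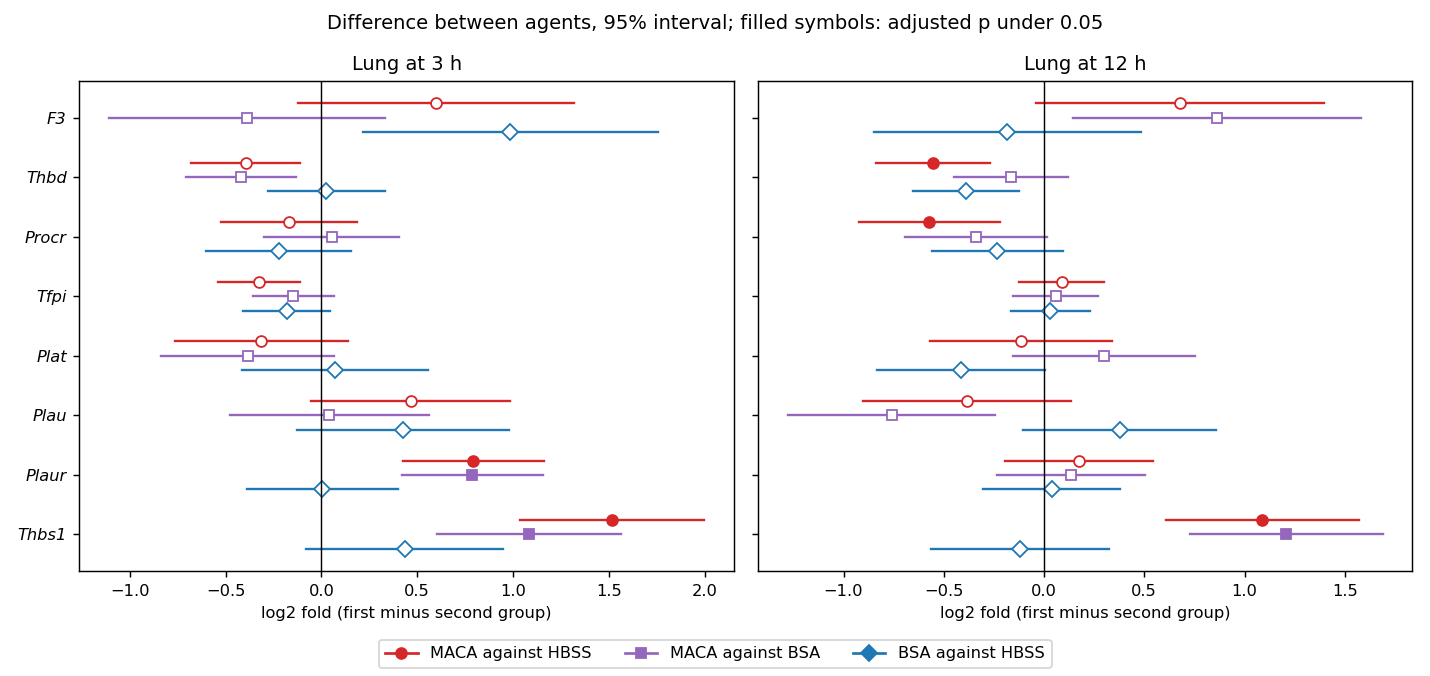
Difference between agents in log2 fold on the x axis for each member on the y axis, at 3 h (left) and 12 h (right), with 95% intervals from the limma fit; filled symbols have an adjusted p under 0.05. Thbs1 stands to the right of 0 for MACA against both HBSS and BSA at both times, while Thbd and Procr stand to the left of 0 for MACA against HBSS at 12 h.

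Among the anticoagulants, thrombomodulin fell with MACA at 12 h. Thbd had a log2 level of 12.01, 11.76, 11.40 and 11.50 with MACA at 3 h, 12.15, 12.09 and 12.03 with BSA and 12.11, 11.98 and 12.09 with HBSS. At 12 h it was 11.61, 11.16 and 11.49 with MACA, 11.68, 11.82, 11.38 and 11.46 with BSA, and 11.89, 12.02, 11.97 and 12.03 with HBSS. Every MACA and every BSA array at 12 h lay under all 4 HBSS arrays. The difference from HBSS at 12 h was -0.55 ± 0.13 with MACA, 1.47-fold lower (adjusted p = 0.00873). With BSA the difference was -0.39 ± 0.12 and was not called (adjusted p = 0.125), and these comparisons share the HBSS arrays.

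The 12 h fall of Thbd with MACA was called in all 9 other settings and was larger with the set as a term, at -0.94 (adjusted p = 0.0005). It lost its call when MACA replicate 2 was left out (-0.42, adjusted p = 0.0668). For BSA, the difference was -0.58 with the set as a term (adjusted p = 0.00164) and -0.55 among low-set arrays alone (adjusted p = 0.0339), both called, over a range of adjusted p of 0.00164 to 0.193. MACA and BSA at 12 h differed by -0.16 (95% interval -0.45 to 0.12, adjusted p = 0.495), which became -0.36 and called with the set as a term (adjusted p = 0.0478) and was -0.33 among the high-set arrays (adjusted p = 0.213).

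At 3 h Thbd was at -0.39 ± 0.13 in MACA against HBSS (adjusted p = 0.0837) and at -0.42 ± 0.13 against BSA (adjusted p = 0.0776), neither called, although all 4 MACA arrays lay under the 3 BSA arrays. Here too the low-set arrays were the lower: the MACA arrays of the high set held 11.76 to 12.01 and those of the low set 11.40 to 11.50. Among high-set arrays the difference from HBSS was -0.18 (adjusted p = 0.498), and without MACA replicate 1 it was -0.51 and called (adjusted p = 0.0181). The group means ran from BSA at 3 h (12.09), HBSS at 3 h (12.06) and HBSS at 12 h (11.98) to MACA at 3 h (11.67), BSA at 12 h (11.59) and MACA at 12 h (11.42), each overlapping with the next. Within BSA, Thbd fell by 0.50 from 3 h to 12 h (adjusted p = 0.0419), a call lost with the set as a term (-0.31, adjusted p = 0.123), among the high-set arrays (-0.34, adjusted p = 0.25) and in 5 of 7 fits that left out 1 array (each BSA array at 3 h, and replicates 3 and 4 at 12 h).

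Procr, the receptor that presents protein C to the thrombin and thrombomodulin complex, was lower with MACA at 12 h. Its log2 level was 7.44, 7.73 and 8.00 with MACA at 12 h, 8.01, 8.08, 7.82 and 8.33 with BSA, and 8.25, 8.26, 8.38 and 8.27 with HBSS. At 3 h it was 7.57, 7.56, 8.34 and 7.82 with MACA, 7.74, 7.87 and 7.70 with BSA, and 7.94, 7.88 and 8.15 with HBSS. The 4 HBSS arrays at 12 h were the highest group and stood above all 3 MACA arrays. The difference between MACA and HBSS was -0.57 ± 0.17 at 12 h, 1.49-fold lower (adjusted p = 0.0232), and -0.17 ± 0.17 at 3 h (adjusted p = 0.598).

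The 12 h difference of Procr was -0.30 with the set as a term, where the call was lost (adjusted p = 0.373), and MACA at 3 h also split by set, at 7.56 to 7.57 in the high set and 7.82 to 8.34 in the low set. The call was lost too without MACA replicate 1 (adjusted p = 0.121), MACA replicate 2 (adjusted p = 0.0716) or HBSS replicate 3 (adjusted p = 0.0529). Against BSA the difference was -0.34 ± 0.17 at 12 h (adjusted p = 0.226) and 0.05 ± 0.17 at 3 h (adjusted p = 0.911). The probe set of Procr carries the suffix that this array family gives to probes shared by several transcripts, so part of its signal may come from another transcript. All 6 groups overlapped with their neighbours, from HBSS at 12 h (8.29) down to MACA at 12 h (7.72).

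Endothelial cells are known to carry most of the Thbd and Procr of a tissue, and the level of endothelial markers was compared over the same arrays. The summed intensity of 12 endothelial markers was 36397 to 40742 with MACA at 12 h and 38487 to 41389 with HBSS. It was 39030 to 40564 with MACA at 3 h and 42380 to 43418 with HBSS. With BSA the sum was 39088 to 40369 at 3 h, under every HBSS array as with MACA, and 40003 to 43259 at 12 h. None of the 12 was called by limma in MACA against HBSS (0 at 3 h, with 3 at an unadjusted p under 0.05, and 0 at 12 h, with 5), and all 12 were above the noise level. Of all genes, 8.12% were called in this comparison at 3 h and 20.2% at 12 h. The median difference of the 12 between MACA and HBSS was -0.09 at 3 h and -0.08 at 12 h. Whether cell numbers took part in the Thbd and Procr differences was not tested.

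Tfpi, which blocks the tissue factor complex, differed little between groups. At 3 h its brightest probe set had a log2 level of 8.61, 8.74, 8.75 and 8.61 with MACA, 9.01, 8.69 and 8.77 with BSA, and 9.18, 8.93 and 8.90 with HBSS. All MACA arrays were under all HBSS arrays, by -0.33 ± 0.10 in the means, which did not pass the threshold (adjusted p = 0.0561). The other 2 probe sets of Tfpi gave -0.24 (adjusted p = 0.352) and -0.31 (adjusted p = 0.082) in the fit of all probe sets, where the MACA arrays also lay under all HBSS arrays. At 12 h its values lay between 8.65 and 9.06 and the group means between 8.82 and 8.91, and the difference of MACA from HBSS was 0.09 (95% interval -0.13 to 0.30, adjusted p = 0.604). Between 3 h and 12 h the difference from HBSS changed by 0.41, which was not called (adjusted p = 0.113).

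Of the plasminogen activators, Plat was bright enough to follow and showed no called difference between agents. Its log2 level at 3 h was 9.61, 9.38, 8.52 and 9.12 with MACA, 9.30, 9.50 and 9.83 with BSA, and 9.51, 9.47 and 9.43 with HBSS. At 12 h it was 8.87, 8.93 and 8.85 with MACA, 8.49, 9.09, 8.23 and 8.52 with BSA, and 8.84, 8.93, 9.12 and 9.10 with HBSS. The difference between MACA and HBSS was -0.31 (95% interval -0.77 to 0.14) at 3 h and -0.11 (-0.57 to 0.34) at 12 h. The low-set arrays of MACA at 3 h held 8.52 to 9.12 and the high-set arrays 9.38 to 9.61.

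Plat was lower at 12 h than at 3 h in the mean of every agent, and the fall was called within BSA. There it fell by 0.96 (adjusted p = 0.0186), 1.94-fold, with all 12 h arrays under all 3 h arrays. The difference was -0.69 with the set as a term (adjusted p = 0.0557) and -0.75 among the high-set arrays (adjusted p = 0.0872), neither called, and it lost its call in 3 of 7 fits that left out 1 array (BSA replicates 2 and 3 at 3 h, and replicate 3 at 12 h). Within HBSS the difference was -0.47 (adjusted p = 0.191), with all 12 h arrays under all 3 h arrays, and within MACA it was -0.27 (adjusted p = 0.48). BSA and HBSS at 12 h differed by -0.41 ± 0.20 (adjusted p = 0.305), and by -0.69 with the set as a term, where the difference was called (adjusted p = 0.0166).

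Urokinase could barely be measured. The noise level, a log2 value of 5.83 set by the size of the negative intensities, was passed by the brighter Plau probe set on 2 of the 21 arrays, replicate 3 of MACA at 3 h (6.07) and replicate 3 of BSA at 3 h (5.92). The other Plau probe set passed it on none of the 21 arrays. Group means of the brighter probe set ran from 5.75 (MACA at 3 h) to 4.81 (MACA at 12 h), each overlapping with the next in order. The difference of MACA at 12 h against 3 h had an adjusted p of 0.0204, but with nearly all values under the noise level no fold is given. It was not called in 5 of 9 other settings, the set as a term (adjusted p = 0.0591) and the high-set arrays alone (adjusted p = 0.184) among them, and the dimmer probe set did not show it (adjusted p = 0.485).

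Between the times, 3 of 8 members were lower at 12 h than at 3 h within MACA (Plaur, Thbs1 and the dim Plau), beside 5.15% of all genes lower and 10.7% called in either direction. Within BSA, 4 of 8 were lower (F3, Plat, Thbd and Thbs1), beside 1.93% lower and 5.30% in either direction. Within HBSS limma called 0 of 8, with 1 at an unadjusted p under 0.05, beside 7.88% of all genes. Thbs1 fell by 0.73 within MACA (adjusted p = 0.0475) and by 0.86 within BSA (adjusted p = 0.0389), and these calls were lost in 5 of 7 and 6 of 7 fits that left out 1 array, with adjusted p up to 0.126 and 0.157. Among the high-set arrays the difference was -0.78 within MACA (adjusted p = 0.163) and -0.66 within BSA (adjusted p = 0.337), and with the set as a term it was -0.74 within BSA (adjusted p = 0.137), none of them called. With the set as a term Thbd was called lower at 12 h within MACA as well (-0.44, adjusted p = 0.0122). Of the fits for Thbs1 within MACA, those that lost the call left out replicates 2 and 4 at 3 h and each array at 12 h, and within BSA each array but replicate 1 at 12 h, whose Thbs1 level stood above the other 3 of its group.

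As fitted for all groups without the technical set, the test of a change of the difference between 3 h and 12 h called no member by limma. For MACA against HBSS it called 0 of 8, with 3 at an unadjusted p under 0.05, beside 3.91% of all genes. For MACA against BSA it called 0 of 8, with 4 at an unadjusted p under 0.05, beside 0.718% of all genes. The largest of these changes was that of F3 between MACA and BSA, 1.25 ± 0.48 (adjusted p = 0.198), as F3 was at -0.39 in MACA against BSA at 3 h and at 0.86 at 12 h. With the technical set as a term the change of Thbd between MACA and HBSS was -0.73 and just called (adjusted p = 0.0499), against -0.16 as reported (adjusted p = 0.708). Without scaling between arrays the changes of Procr (-1.18, adjusted p = 0.0359), Plaur (-1.40, adjusted p = 0.0465) and the dim Plau were called, in a fit where the median gene changed by -0.66. Whether the differences of Plaur, Thbd and Procr from HBSS changed between the times thus depended on the setting.

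Whether arrays of 2 groups overlap gave a second reading that needs no model. MACA and HBSS did not overlap for 3 of 8 members at 3 h (Plaur and Thbs1 higher, Tfpi lower), beside 21% of all genes, and for 3 of 8 at 12 h (Thbs1 higher, Thbd and Procr lower), beside 32.7%. MACA and BSA did not overlap for 3 of 8 at 3 h (Plaur and Thbs1 higher, Thbd lower), beside 17.7%, and for 2 of 8 at 12 h (Thbs1 higher, Plau lower under the noise level), beside 18.3%. BSA and HBSS did not overlap for 2 of 8 at 3 h (F3 higher, Procr lower), beside 18.0%, and for 1 of 8 at 12 h (Thbd lower), beside 8.32%. Between 12 h and 3 h, 4 of 8 members did not overlap within MACA (Plau, Plaur and Thbs1 lower, Tfpi higher), beside 21.3%, 4 of 8 within BSA (F3, Thbd, Plat and Thbs1 lower), beside 16.2%, and 2 of 8 within HBSS (Plat lower, Procr higher), beside 24.9%. For MACA against HBSS at 12 h and between the times within HBSS, the members' share was close to that of all genes. It was also near it, as shares of 8 members are coarse, for BSA against HBSS at both times and for MACA against BSA at 12 h.

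**Figure D3:**
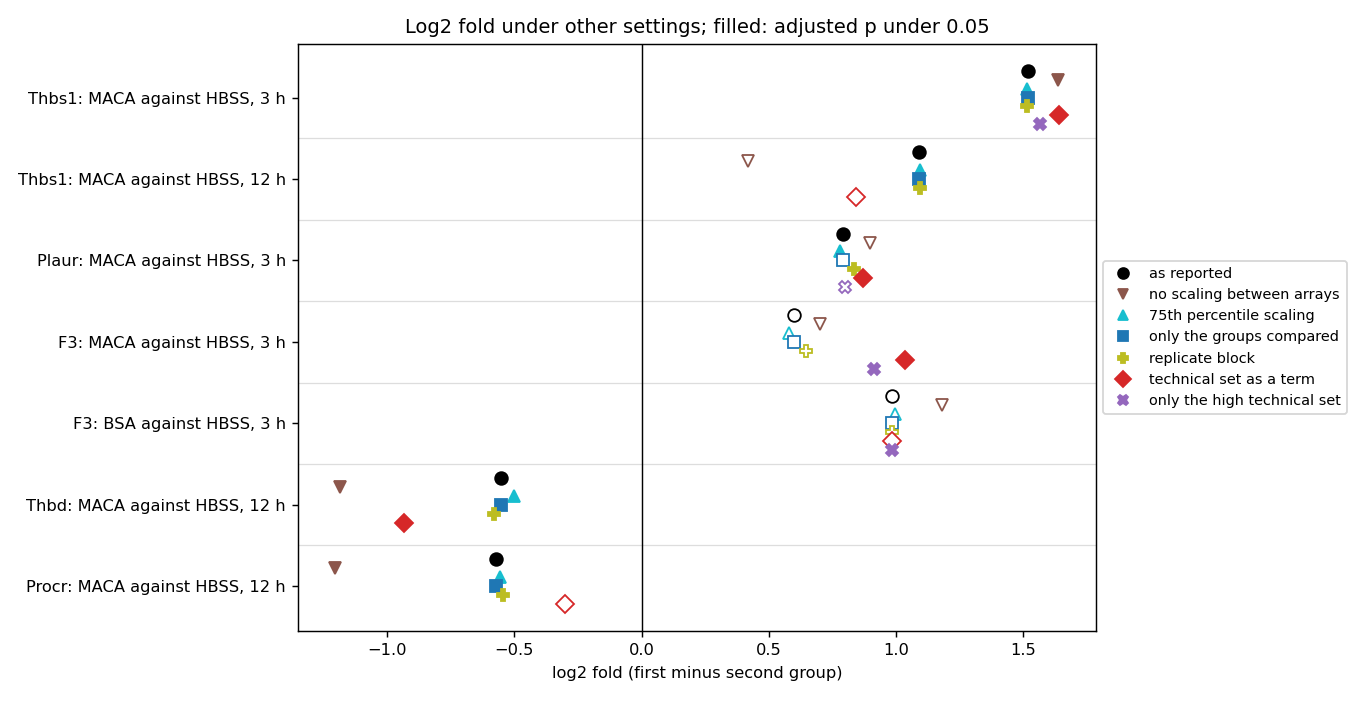
Log2 fold of 7 member comparisons on the x axis as reported and under 6 other settings, with filled symbols where the adjusted p was under 0.05. Thbs1 at 3 h kept its place and its call in every setting drawn, Thbd at 12 h lay further from 0 with the technical set as a term, and F3 at 3 h was called with MACA when the set was taken into account; no comparison within the high set exists for MACA against HBSS at 12 h.

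The wider pathway was read from 52 other genes. They were genes of coagulation, its receptors and inhibitors, genes of fibrinolysis, and 6 relatives or receptors of thrombospondin. Of the 52, 48 were measured and 23 had a mean above the noise level. The other 4 were not analysed here, and the counts and medians of the 48 include the 6. Against HBSS, MACA gave 2 higher and 1 lower of the 48 at 3 h, beside 4.84% of all genes higher and 3.28% lower, and 7 higher and 3 lower at 12 h, beside 10.2% and 10.1%. The median difference was 0.00 at 3 h and -0.01 at 12 h. Against BSA, MACA gave 3 higher and 1 lower at 3 h, beside 3.50% and 2.45% of all genes, and 4 higher and 3 lower at 12 h, beside 4.07% and 5.58%. BSA against HBSS gave 0 of 48 by limma at 3 h, with 1 at an unadjusted p under 0.05, and 1 lower at 12 h, Cd36 (-0.43, adjusted p = 0.0402), beside 0.791% of all genes lower.

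**Figure D4:**
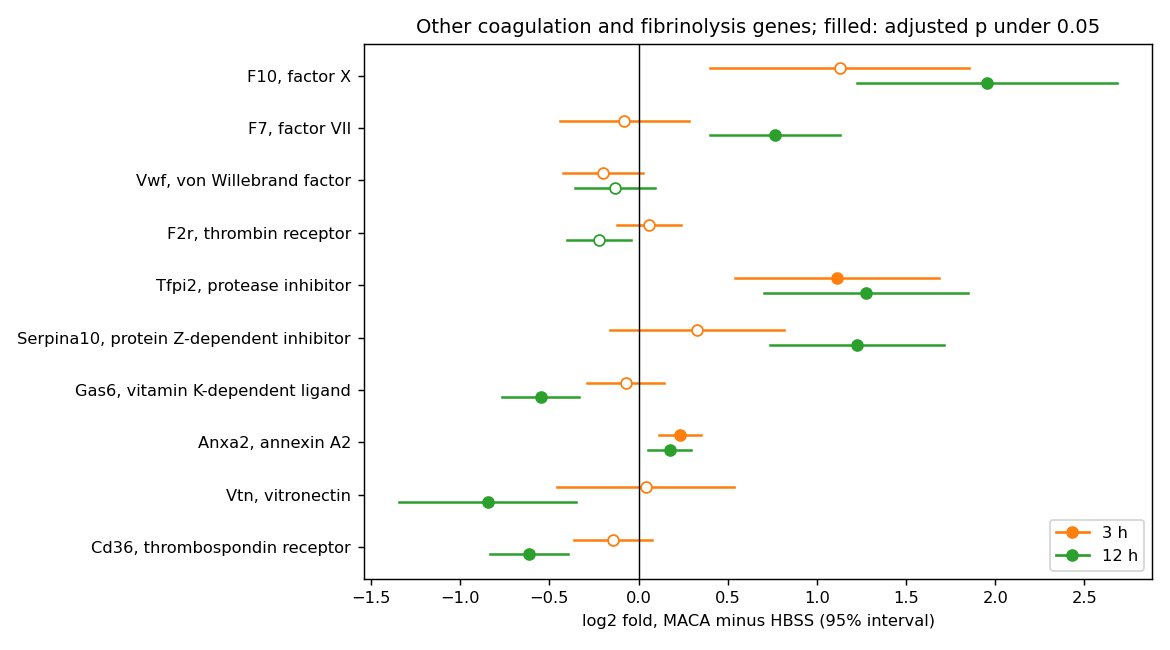
Difference between MACA and HBSS in log2 fold on the x axis, with 95% intervals, at 3 h (orange) and 12 h (green). The y axis holds 10 other genes of the pathway lists, with Cd36 among them as a thrombospondin receptor. Filled symbols have an adjusted p under 0.05. F10 has the largest difference at 12 h, and Cd36, Gas6 and Vtn lie under 0 at 12 h.

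The 12 h comparison of these genes also sets high-set against low-set arrays. With the set as a term, a fit added after the data were seen, 3 of the 48 were higher and 2 lower in MACA against HBSS at 12 h, beside 8.28% and 7.92% of all genes. These were F10, Serpina10, the dim Fgg, Cd36 and F13a1, the last a fibrin cross-linking enzyme that was not called without the term. F13a1 was lower there (-0.52, adjusted p = 0.0434) but higher at 3 h. Its 3 h difference from HBSS was 0.36 without the term and not called (adjusted p = 0.196). It was 0.57 with the term (adjusted p = 0.0158) and 0.46 among the high-set arrays (adjusted p = 0.0242), both called.

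Of the 18 measured genes of the coagulation cascade, 3 were called higher with MACA than with HBSS at 12 h, beside 10.2% of all genes. They were F10, F7 and the dim Fgg, and F10 and F7 code for the partners of tissue factor in the first steps of the cascade. The mean log2 level of F10 was 8.17 at 3 h and 8.34 at 12 h with MACA, and 7.04 and 6.38 with HBSS. F10 (factor X) was at 8.14 to 8.47 on the 3 MACA arrays and at 6.20 to 6.55 on the 4 HBSS arrays at 12 h, a difference of 1.95 ± 0.34, 3.87-fold (adjusted p = 0.00103). At 3 h F10 was at 7.79 to 8.69 with MACA and 6.57 to 7.40 with HBSS, with no overlap, and the difference of 1.13 just missed the threshold (adjusted p = 0.0538), whereas against BSA it was called at both times (1.65, adjusted p = 0.0112, and 1.48, adjusted p = 0.0129). In the fit that holds the set as a term the F10 difference from HBSS at 12 h was 1.72 (adjusted p = 0.0231). F7 (factor VII) differed from HBSS by 0.77 ± 0.17 at 12 h (adjusted p = 0.00516) and by -0.08 at 3 h (adjusted p = 0.839), and with the set as a term its 12 h difference was 0.40 and not called (adjusted p = 0.191). Among the high-set arrays alone, the F10 differences from BSA lost their call at both times (adjusted p = 0.128 and 0.208).

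The fibrinogen genes were dim in lung. Fga was above the noise level on all 4 MACA arrays at 3 h (6.43 to 7.28), on 2 of 3 HBSS arrays and on none of the 3 BSA arrays, at least 1.93-fold higher with MACA than with BSA (adjusted p = 0.0166), while its difference of 1.09 from HBSS had an adjusted p of 0.05 and was not called. Fgb was at the floor on every array. Fgg passed the test against HBSS at 12 h (adjusted p = 0.013) with all arrays of both groups under the noise level, so no fold is given, and the same holds for Kng1 at 3 h (adjusted p = 0.023), which was lower. Among the high-set arrays alone, Fga against BSA and Kng1 against HBSS at 3 h lost their calls (adjusted p = 0.215 and 0.186). The hepatocyte markers Alb, Apoa1 and Ttr were under the noise level on every array at 3 h and of MACA at 12 h. Vwf, the platelet-binding factor of endothelium, differed between MACA and HBSS by -0.20 at 3 h (adjusted p = 0.273) and -0.13 at 12 h (adjusted p = 0.422). MACA against BSA at 12 h gave -0.35 for Vwf, which was called (adjusted p = 0.0477), but not with the set as a term (adjusted p = 0.181). BSA against HBSS at 12 h was called for Vwf with the term (0.33, adjusted p = 0.0318) but not without it (adjusted p = 0.276). F2r, the thrombin receptor, differed between MACA and HBSS by 0.06 at 3 h (adjusted p = 0.75) and -0.22 at 12 h (adjusted p = 0.0793).

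A list of 10 other genes held anticoagulants and their relatives. In it, 2 were higher and 1 lower with MACA than with HBSS at 12 h, beside 10.2% of all genes higher and 10.1% lower. Gas6 on this list is not itself an anticoagulant, so the count gives no direction of clotting. Tfpi2, a protease inhibitor related to Tfpi, was higher by 1.11 ± 0.27 at 3 h (adjusted p = 0.019) and by 1.28 ± 0.27 at 12 h (adjusted p = 0.00364), on levels of 6.89 to 8.35 and 7.89 to 8.35 against 6.42 to 6.69 and 6.68 to 6.98 with HBSS. Serpina10, which inhibits factor X with protein Z, was higher by 1.23 ± 0.23 at 12 h (adjusted p = 0.00166). Gas6, a vitamin K-dependent ligand of receptor kinases, was lower at 12 h, with a difference of -0.55 ± 0.10 (adjusted p = 0.00159). In the fit that holds the set as a term, Serpina10 at 12 h kept its call (1.43, adjusted p = 0.00721), and Tfpi2 (1.07, adjusted p = 0.0615) and Gas6 (-0.33, adjusted p = 0.0675) lost theirs. At 3 h Tfpi2 kept it with the term (adjusted p = 0.0202) and lost it among the high-set arrays (1.10, adjusted p = 0.114). Tfpi itself was not called at either time.

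Of the 11 measured genes of fibrinolysis, Anxa2, whose product binds plasminogen and tissue-type activator at the cell surface, was higher with MACA than with HBSS by 0.23 ± 0.06 at 3 h (adjusted p = 0.0193) and 0.17 ± 0.06 at 12 h (adjusted p = 0.039). BSA differed from HBSS in Anxa2 by like amounts, 0.21 at 3 h (adjusted p = 0.182) and 0.20 at 12 h (adjusted p = 0.0738), neither called. With the set as a term that difference of BSA at 12 h was called (0.20, adjusted p = 0.0422). MACA and BSA differed in Anxa2 by 0.02 at 3 h and -0.02 at 12 h (adjusted p = 0.913 and 0.885). Vtn (vitronectin), an adhesive glycoprotein of plasma and matrix, was lower with MACA than with HBSS at 12 h, with a difference of -0.85 ± 0.23 (adjusted p = 0.0172). In the fit that holds the set as a term neither difference of MACA from HBSS was called at 12 h (Anxa2 0.18, adjusted p = 0.14, and Vtn -0.52, adjusted p = 0.27), and Anxa2 at 3 h was called with the term (adjusted p = 0.0319) but not among the high-set arrays (0.22, adjusted p = 0.104). Serpinb2, an inhibitor of urokinase, passed the test at 12 h (adjusted p = 0.0107), but 1 MACA array alone was above the noise level, so no fold is given. Of the 6 thrombospondin relatives, the receptor Cd36 was lower at 12 h, with a difference of -0.61 ± 0.10 (adjusted p = 0.000785) and of -0.77 with the set as a term (adjusted p = 0.00216), while Thbs2, Thbs3, Thbs4, Comp and Cd47 were not called at either time.

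At 12 h inflammatory cell markers were higher with MACA than with HBSS beside these genes. That comparison also sets high-set against low-set arrays, and in it 10.2% of all genes were called higher and 10.1% lower. The neutrophil sum was 4269 to 7712 with MACA and 1778 to 3029 with HBSS at 12 h, with 3 of 10 markers called higher. The macrophage and monocyte sum was 9752 to 12111 against 6216 to 8468, with 5 of 11 called higher. Unlike at 3 h, both sums with BSA (3013 to 6874 and 7145 to 11874) overlapped with those of MACA. Against BSA, 1 of 10 neutrophil and 3 of 11 macrophage and monocyte markers were called higher with MACA, beside 4.07% of all genes. The alveolar epithelial sum was 67291 to 70405 with MACA and 56871 to 66208 with HBSS, with 3 of 10 called higher, and 2 of 10 fibroblast and smooth muscle markers (Dcn and Pdgfra) were lower. The sum of 4 cardiac muscle markers was 2650 to 3773 with MACA and 5162 to 9060 with HBSS at 12 h, with Myh6 and Myl7 called lower and a median difference of -0.80. Their part in the F10, F7, Gas6, Vtn and Cd36 differences was not tested.

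The genes most like each member over the 21 arrays were found by Pearson's r of the log2 values among 8910 genes with a mean above the noise level, as a description of arrays that share treatment, time and technical set. Thbs1 ran closest with Rab20 (0.97) and Ch25h (0.96), and Plaur with Slc25a25 (0.94) and Zfp36 (0.93). F3 ran closest with Ifrd1 (0.94) and Tor1aip2 (0.89), and Thbd with Tmem100 (0.94) and Nox4 (0.92). Plat ran with Golph3 (0.89) and Arhgap24 (0.86), and Procr with Rab3d (0.85) and Tsen34 (0.83). Tfpi had the weakest neighbours, Scnm1 (0.74) and Uqcr10 (0.72).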

How the data were processed

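Per the labels' protocols, total RNA was isolated with a column kit from snap-frozen whole left lungs and biotin-labelled cRNA was hybridised. The authors deposited linear intensities of 22690 probe sets, 1 column per array. Which software summarised and scaled them is not given in the sources used here. Between 9.38% and 11.2% of the deposited intensities of an array lie below 0, and the median intensity of an array ranges from 93.0 to 286.6, so the deposited arrays are not at 1 level.

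After 64 control probe sets were left out, the intensities were quantile normalized. Negative results were replaced by 0 before log2(value + 16). The platform annotation gave 20380 probe sets 1 gene symbol, 691 several and 1555 none, and the brightest probe set stood for each of 12393 genes. The noise level (intensity 40.9, log2 5.83) is the size that 95% of the negative normalized values do not exceed. Where a group lay under it on every array, a fold is given as "at least", against that level, and none where both groups did.

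limma (3.58.1, R 4.3.3) fitted 6 group means to 21 arrays with 15 residual degrees of freedom, and 11 comparisons were tested, 2-sided, with Benjamini-Hochberg adjustment over all genes. The script was tested on simulated data. No 2 arrays held identical values (0 pairs, highest correlation within a group 0.991). Arrays limit the precision by their number. Plots were drawn in matplotlib 3.10.9 (python 3.11.15).

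The members, the pathway and marker lists, the naming rule and the technical split were chosen with earlier results of these data known. The rule names all members, and of the pathway lists each gene past the threshold in MACA against HBSS plus 8 genes whatever their value. Same-numbered arrays of different groups deviated together in 13 of 28 pairs (correlation of deviations from the group means over 0.1, range -0.18 to 0.44). For BSA against HBSS at 12 h all 4 pairs were over 0.1 (0.20 to 0.44), and the replicate block changed no call there. Such correlations cannot show that arrays were paired, and in every comparison the labels give them only a number in common. Alternatives were other scaling or none, a pseudocount of 64, a filter at the noise level, only the groups compared, the replicate block, the technical set, all probe sets or their mean, and leaving out each array. For pathway genes the set was added after seeing the data.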

Additional observations from a re-analysis of the deposited data

Results flagged for a closer look

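The 8 genes were read in 3 groups of 4 arrays, 24 sets of values in all. In 4 of the 24, 1 array stood apart from the other 3 by Dixon's test at the 95% level, which chance passes in about 1 of 20 sets. F3 was 9.47 on replicate 3 of MACA at 3 h, against 10.39 to 10.58 on the other 3 arrays, and that array is of the low technical set. Procr was 8.38 on replicate 3 of HBSS at 12 h, against 8.25 to 8.27. Tfpi was 9.04 on replicate 3 of BSA at 12 h, against 8.76 to 8.80. Thbs1 was 10.13 on replicate 1 of BSA at 12 h, against 9.12 to 9.25. None of the 16 tests of a change of a member's difference between the times passed the threshold as reported.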

How the results depend on the processing

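The 15 called results of the members kept their direction in every fit run (0 sign changes), and kept the call in 102 of 146 fits with another setting. Leaving out 1 array ended the call in 32 of 105 fits. Results not called became called with the same sign in 20 fits with another setting and in 3 that left out 1 array. These counts leave out results that became called with the other sign, as Thbd and Tfpi did within HBSS without scaling. Where a call was lost the cause was not tested, except that fits on the groups compared or within a set use fewer arrays. The number of arrays and the noise level, under which Plau lies, limit these data.

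The counts of called members were 2 and 3 (MACA against HBSS at 3 h and 12 h), 2 and 1 (MACA against BSA), 3 and 4 (12 h against 3 h within MACA and BSA) and 0 in the other comparisons. Without scaling the median gene shifted by -0.57 in MACA against HBSS at 12 h, -0.45 in BSA against HBSS at 12 h, 0.72 between the times within HBSS and -0.66 in the change of MACA against HBSS, and 162 genes were called higher and 5412 lower in MACA against HBSS at 12 h, against 1258 and 1251 with scaling. There the counts were 1 for MACA against HBSS at 3 h, 0 for MACA against BSA at both times, 0 between the times within MACA and BSA, and 3 each for BSA against HBSS at 12 h, for the times within HBSS and for the change of MACA against HBSS. Without scaling 2 differences within HBSS turned, Thbd from -0.09 to 0.64 (adjusted p = 0.0207) and Tfpi from -0.18 to 0.65 (adjusted p = 0.0373), both less than the shift of the median gene.

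Over all genes, MACA against HBSS at 3 h gave 1006 called as reported, 140 without scaling and 532 with only the groups compared, and BSA against HBSS at 12 h gave 167, against 2059 without scaling and 1493 with the technical set as a term. For MACA against BSA the 738 genes called at 3 h became 44 without scaling, 132 with only the groups compared and 152 within the high set, and the 1196 at 12 h became 96, 0 (by limma, with 2439 at an unadjusted p under 0.05) and 429. With only the groups compared, the counts of members were 1 for MACA against HBSS at 3 h, 0 for MACA against BSA at both times, and 1, 0 and 1 between the times within MACA, BSA and HBSS. With the technical set as a term they were 1 for MACA against HBSS at 12 h, 2 for MACA against BSA at 12 h, 2 for BSA against HBSS at 12 h, 0 within BSA and 1 (Thbd) for the change of MACA against HBSS. Within the high set they were 0 for MACA against BSA at both times and 1 each for BSA against HBSS at 3 h and the times within MACA and within BSA. Within the low set, an alternative chosen after seeing the data, BSA against HBSS at 12 h gave 1. With the mean of a gene's probe sets, 1 was called between the times within MACA.

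Leaving out 1 array gave 1 to 3 called for MACA against HBSS at each time, 1 to 3 and 1 to 2 for MACA against BSA at 3 h and 12 h, 1 to 3 within MACA, 0 to 4 within BSA and 0 elsewhere. With the replicate block the counts were 2, 3, 2, 1, 0 and 0 for the 6 comparisons of agents, 2 within MACA, 3 within BSA and 0 otherwise; it ended the calls of Thbs1 within MACA (adjusted p = 0.0614) and of Thbd within BSA (adjusted p = 0.0525).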
